A study of Homo sapiens with 12 samples.

Results

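LGR5, a receptor for R-spondins and a marker of Wnt-dependent stem cells, and 9 other genes of the Wnt pathway were followed through 4 treatments of the line MDA-MB-231, derived from a triple-negative breast tumour and known for its mesenchymal character. The 10 genes were chosen by symbol, starting from the strong fall of LGR5 under dexamethasone, and all 10 were found among the 26364 gene rows of the deposited read counts and passed the filter on low counts, which left 14184 rows. RNA-seq libraries came from wells given 1 µM dexamethasone (DEX), an agonist of the glucocorticoid receptor, together with 8 µM SH4-54, an inhibitor of STAT3 and STAT5, or DEX alone, or SH4-54 alone, or no drug, for 24 h. Each group held 3 wells. No source used here states what vehicle the wells without drug received, or that wells came from separate cultures; the p-values therefore reflect well-to-well spread, which may be technical.

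Wnt proteins are secreted lipid-modified ligands that bind Frizzled receptors. In the canonical branch, with LRP5 or LRP6 as co-receptor, they stop the breakdown of beta-catenin, which then acts with TCF and LEF factors on target genes. Among these targets are the pathway's own brakes, AXIN2, ZNRF3 and RNF43. ZNRF3 and RNF43 are ubiquitin ligases that remove Frizzled receptors from the cell surface, and LGR4 and LGR5, when bound by R-spondins, hold those ligases off. DKK1 blocks LRP5 and LRP6. WNT5A and WNT5B are mostly known for beta-catenin-independent signalling linked to migration. TCF7 encodes a TCF factor, and DKK3 encodes a relative of DKK1 that does not act on LRP6 as DKK1 does.

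Promoter windows are shown for 4 genes. Among the members with a window at hand, these moved most clearly with a treatment in the results that follow. DKK1 and WNT5A were higher and LGR4 was lower with DEX, and RNF43 differed between the wells with DEX alone and those with both compounds. RefSeq windows of 300 bases around annotated starts (GRCh38.p14) were at hand for 6 of the 10 genes, with 10 windows in all. No window was at hand for LGR5, which moved most, or for AXIN2, DKK3 and ZNRF3. The DKK1 window is chr10:52314031-52314330 on the plus strand. The WNT5A windows are chr3:55487257-55487556 and chr3:55481349-55481648, the LGR4 window is chr11:27472741-27473040 and the RNF43 window is chr17:58417485-58417784, all on the minus strand. Letters run 5′ to 3′ along the gene, and capitals mark matches to the motifs searched.
DKK1: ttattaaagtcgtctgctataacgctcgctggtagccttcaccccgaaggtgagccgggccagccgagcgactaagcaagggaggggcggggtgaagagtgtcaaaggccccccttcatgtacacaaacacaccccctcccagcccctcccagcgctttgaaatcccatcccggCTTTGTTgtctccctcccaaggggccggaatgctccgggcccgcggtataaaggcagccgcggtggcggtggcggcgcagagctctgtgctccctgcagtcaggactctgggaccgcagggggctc
WNT5A, upstream start: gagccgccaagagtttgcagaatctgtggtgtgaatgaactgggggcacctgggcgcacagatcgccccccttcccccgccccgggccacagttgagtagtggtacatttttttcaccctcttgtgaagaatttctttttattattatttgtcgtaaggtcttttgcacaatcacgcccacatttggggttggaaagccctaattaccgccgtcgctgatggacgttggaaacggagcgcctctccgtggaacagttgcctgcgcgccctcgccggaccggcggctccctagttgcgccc
WNT5A, downstream start: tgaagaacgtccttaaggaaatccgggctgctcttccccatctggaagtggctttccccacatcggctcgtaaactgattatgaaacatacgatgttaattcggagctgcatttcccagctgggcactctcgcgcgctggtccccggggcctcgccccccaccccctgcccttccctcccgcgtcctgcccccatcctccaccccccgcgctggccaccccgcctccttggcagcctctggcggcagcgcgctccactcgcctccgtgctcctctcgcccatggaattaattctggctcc
LGR4: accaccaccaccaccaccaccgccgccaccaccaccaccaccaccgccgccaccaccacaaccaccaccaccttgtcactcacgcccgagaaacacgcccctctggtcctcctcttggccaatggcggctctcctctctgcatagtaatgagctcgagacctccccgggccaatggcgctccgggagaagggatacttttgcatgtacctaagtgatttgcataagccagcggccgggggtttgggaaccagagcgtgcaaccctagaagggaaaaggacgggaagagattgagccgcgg
RNF43: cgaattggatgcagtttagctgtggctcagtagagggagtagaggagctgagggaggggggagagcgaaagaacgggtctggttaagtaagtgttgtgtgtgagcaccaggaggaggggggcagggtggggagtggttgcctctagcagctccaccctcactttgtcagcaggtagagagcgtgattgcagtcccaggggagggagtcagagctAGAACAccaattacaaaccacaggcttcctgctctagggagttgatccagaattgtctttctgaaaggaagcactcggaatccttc
The motifs were searched on both strands: the glucocorticoid receptor half-site AGAACA and the full palindrome GNACANNNTGTNC, the TCF/LEF core as CTTTGAT or CTTTGTT, and the STAT palindrome TTCNNNGAA. In the DKK1 window 1 CTTTGTT match began 76 bases before the start, and 1 AGAACA match began 36 bases before the start in the RNF43 window shown. The window at the other RNF43 start, chr17:58402672-58402971, held no match and is not shown. The LGR4 and WNT5A windows held no match to any of these letters. Over all 35116 RefSeq windows of this length, CTTTGTT was present in 5.2%, CTTTGAT in 2.62%, AGAACA in 14.8%, GNACANNNTGTNC in 0.39% and TTCNNNGAA in 7.66%. Of the 10 windows of these genes, 2 held CTTTGTT and 2 held AGAACA. A match describes letters in this window only.

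The combination libraries held 26280158 to 35758236 counted reads, the DEX libraries 26040956 to 29426776, the SH4-54 libraries 25577213 to 28864061 and the no-drug libraries 28439725 to 31552360. Levels are given as CPM (reads of a gene scaled by TMM to library size), with the SD over 3 wells. Of the cell line's markers, VIM stood between 805 and 1365 CPM over the 12 libraries and the hormone receptor genes ESR1 and PGR below 0.5 CPM (highest wells 0.233 and 0.45 CPM). ERBB2, also read in triple-negative typing, stood between 73.8 and 90.4 CPM. Epithelial genes were present too: KRT18 stood between 290 and 365 CPM and CDH1 between 5.29 and 15.05 CPM. Of the luminal epithelial markers, EPCAM ranged from 17.3 to 23.2 CPM, GATA3 from 0.762 to 1.67 CPM and FOXA1 from 0.894 to 1.86 CPM. Of the leukocyte markers, PTPRC ranged from 0.0774 to 0.733 CPM and CD3E was at 0 in 9 of 12 libraries. Of the endothelial markers, PECAM1 ranged from 0.226 to 1.20 CPM, VWF was at 0 in 5 libraries and CDH5 in 11. Of the fibroblast markers, COL1A1 ranged from 0.716 to 1.57 CPM and COL1A2 from 0.103 to 0.626 CPM, and PDGFRA was at 0 in 2 libraries. The glucocorticoid target gene FKBP5 averaged 218 ± 47.1 CPM with both compounds, 326 ± 17.5 CPM with DEX, 54.3 ± 2.26 CPM with SH4-54 and 53.9 ± 1.56 CPM without drug. The inducible heat shock gene HSPA6 stood apart in the combination wells, at 150, 483 and 156 CPM, against 0.232, 0.308 and 0.641 CPM in the DEX wells, 25.4, 27.1 and 19.4 CPM in the SH4-54 wells and 0.501, 0.265 and 0.457 CPM in the no-drug wells.

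LGR5 nearly disappeared with DEX, whether or not SH4-54 was present. The 3 wells held 0.777, 1.27 and 1.12 CPM with both compounds and 0.58, 0.617 and 0.565 CPM with DEX, against 10.9, 12.3 and 11.5 CPM with SH4-54 and 11.9, 11.2 and 10.6 CPM without drug. Every well with DEX lay far below every well without it. In reads this was 20, 35 and 40 with both compounds, 15, 18 and 15 with DEX, 318, 327 and 297 with SH4-54 and 379, 338 and 303 without drug, so the low levels rest on few reads. The group means ran, from high to low, 11.6 ± 0.678 CPM with SH4-54, 11.2 ± 0.607 CPM without drug, 1.06 ± 0.252 CPM with both compounds and 0.587 ± 0.0264 CPM with DEX. The SH4-54 and no-drug wells overlapped. In bulk RNA, fewer cells with LGR5 transcripts and less LGR5 RNA per cell cannot be told apart.

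For DEX against no drug, the contrast from which the genes were chosen, the LGR5 log2 fold change was -4.25 ± 0.142 (standard error), a level 19-fold lower, and no test is given. The combination against SH4-54 used 6 wells that played no part in that contrast. There LGR5 was 10.8-fold lower, a log2 fold change of -3.43 ± 0.126 (edgeR quasi-likelihood test, adjusted p = 3.61e-11).

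LGR4, the more widely expressed relative of LGR5, fell less. It measured 261, 239 and 278 CPM with both compounds and 285, 296 and 286 CPM with DEX, against 432, 476 and 471 CPM with SH4-54 and 516, 496 and 482 CPM without drug. No well with DEX reached the lowest well without it. The log2 fold change was -0.82 ± 0.0505 for both compounds against SH4-54 (edgeR adjusted p = 9.29e-09) and -0.78 ± 0.0504 for DEX against no drug. Per kilobase of annotated exon, LGR4 was well above LGR5 in every group: 40.9 against 0.201 CPM per kb with both compounds, 45.6 against 0.112 with DEX, 72.5 against 2.2 with SH4-54 and 78.5 against 2.14 without drug.

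**Figure D1:**
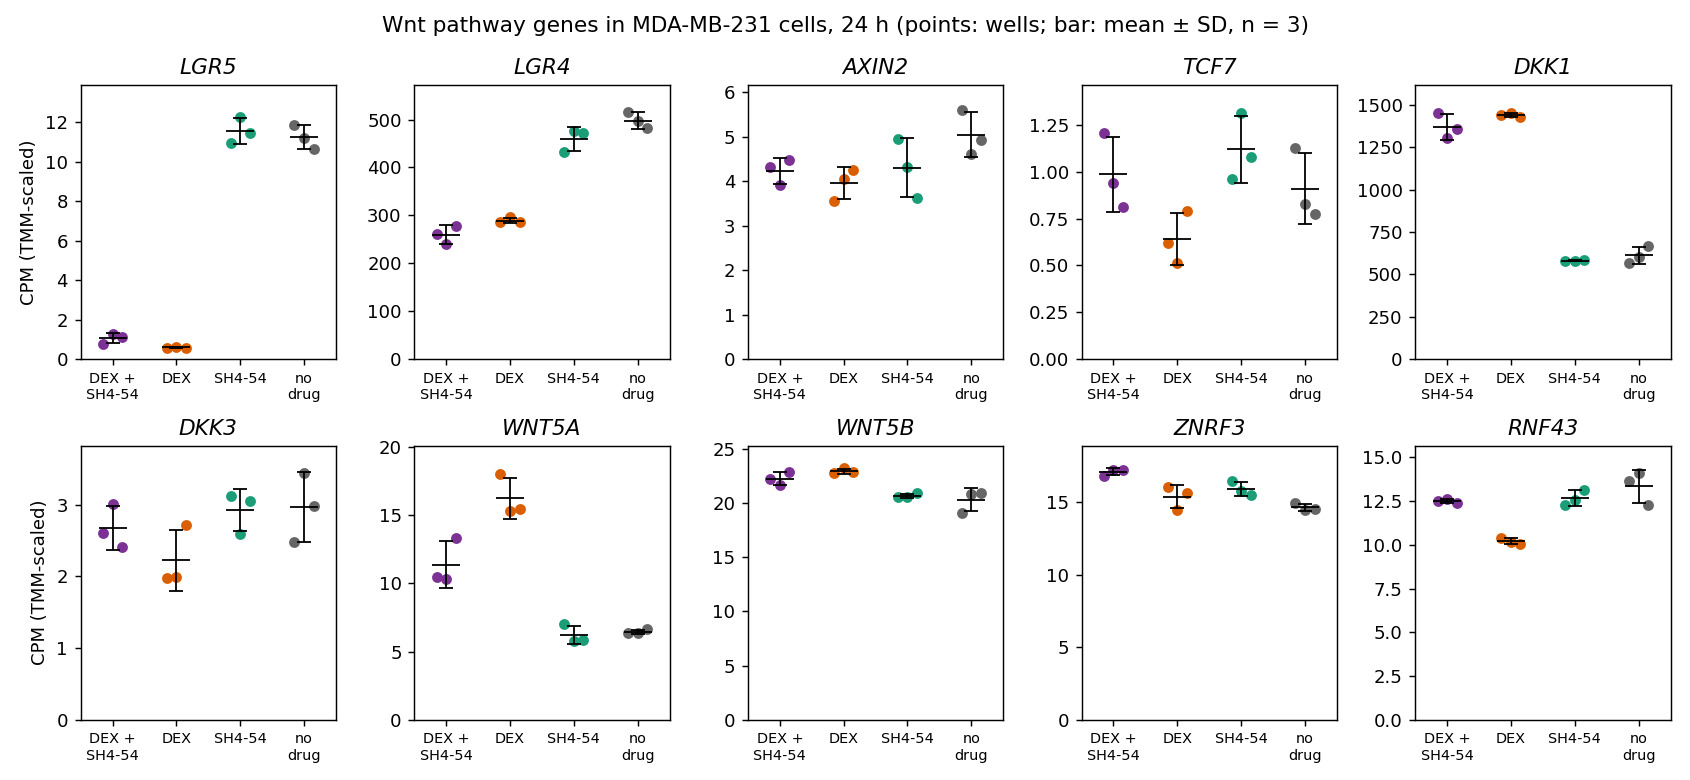
CPM of the 10 genes in each of the 12 wells (points), with the mean and SD of each group of 3 wells; groups run from DEX plus SH4-54, DEX and SH4-54 to no drug, and each panel has its own axis from 0. LGR5 lies below 1.3 CPM in every well with DEX and above 10 CPM in every well without it, while DKK1 and WNT5A are higher and LGR4 lower in the wells with DEX.

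Among the antagonists, DKK1 more than doubled with DEX and DKK3 did not follow it. DKK1 held 1449, 1302 and 1356 CPM with both compounds and 1441, 1453 and 1431 CPM with DEX, against 580, 579 and 585 CPM with SH4-54 and 569, 601 and 665 CPM without drug. The wells with and without DEX did not overlap. DKK1 was 2.35-fold higher with both compounds than with SH4-54 (log2 fold change 1.24 ± 0.0497, edgeR adjusted p = 9.53e-11) and 2.36-fold higher with DEX than without drug (1.24 ± 0.0497). DKK1 also had the highest level per kilobase of exon of the 10 genes in every group, from 264 CPM per kb with SH4-54 to 654 CPM per kb with DEX. DKK3 averaged 2.67 ± 0.305 CPM with both compounds, 2.22 ± 0.423 CPM with DEX, 2.92 ± 0.29 CPM with SH4-54 and 2.97 ± 0.488 CPM without drug. Its groups overlapped, and its log2 fold change for both compounds against SH4-54 was -0.14 ± 0.164 (edgeR adjusted p = 0.545). For DEX against no drug the DKK3 log2 fold change was -0.42 ± 0.167, with an interval from -0.77 to -0.06 and overlapping wells.

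Of the paired ligand genes, WNT5A was higher with DEX and WNT5B was nearly level. WNT5A reached 10.5, 10.3 and 13.3 CPM with both compounds and 18.0, 15.3 and 15.5 CPM with DEX, against 7.01, 5.78 and 5.87 CPM with SH4-54 and 6.39, 6.33 and 6.64 CPM without drug. The DEX wells were highest, the combination wells lay between, and the SH4-54 and no-drug wells overlapped. The rise was 1.83-fold with both compounds over SH4-54 (log2 fold change 0.88 ± 0.112, edgeR adjusted p = 2.02e-05), and the DEX level was 2.52-fold that without drug (1.33 ± 0.108). WNT5B averaged 22.2 ± 0.575 CPM with both compounds, 22.9 ± 0.248 CPM with DEX, 20.7 ± 0.182 CPM with SH4-54 and 20.3 ± 1.05 CPM without drug. Its log2 fold change for both compounds against SH4-54 was 0.11 ± 0.0486 and missed the threshold (edgeR adjusted p = 0.0972). For DEX against no drug it was 0.18 ± 0.0484, with no overlap between the wells. Per kilobase of exon, WNT5B lay above WNT5A in every group, at 5.16 against 1.54 CPM per kb with both compounds, 5.32 against 2.2 with DEX, 4.8 against 0.841 with SH4-54 and 4.71 against 0.872 without drug.

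AXIN2 and TCF7 passed in none of the 4 comparisons tested. AXIN2, which encodes a scaffold of the beta-catenin destruction complex, averaged 4.24 ± 0.293 CPM with both compounds, 3.95 ± 0.358 CPM with DEX, 4.3 ± 0.661 CPM with SH4-54 and 5.04 ± 0.509 CPM without drug. Its log2 fold change was -0.35 ± 0.127 for DEX against no drug and -0.02 ± 0.129 for both compounds against SH4-54 (edgeR adjusted p = 0.913, 95% interval -0.30 to 0.25). TCF7 stayed near 1 CPM, with means of 0.986 ± 0.2 CPM with both compounds, 0.641 ± 0.14 CPM with DEX, 1.12 ± 0.179 CPM with SH4-54 and 0.91 ± 0.19 CPM without drug. Its log2 fold change for both compounds against SH4-54 was -0.20 ± 0.229 (edgeR adjusted p = 0.526). For DEX against no drug it was -0.52 ± 0.254, with overlapping wells. The counts of 15 to 36 reads per well leave wide intervals, -0.69 to 0.29 and -1.06 to 0.03.

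The ubiquitin ligase genes differed from each other. RNF43 held 12.5, 12.6 and 12.4 CPM with both compounds and 10.4, 10.2 and 10.1 CPM with DEX, against 12.3, 12.6 and 13.2 CPM with SH4-54 and 13.6, 14.1 and 12.3 CPM without drug. The wells with DEX alone were the lowest, and the combination wells overlapped the SH4-54 wells. The log2 fold change was -0.39 ± 0.0635 for DEX against no drug and -0.02 ± 0.0627 for both compounds against SH4-54 (edgeR adjusted p = 0.838). ZNRF3 averaged 17.1 ± 0.241 CPM with both compounds, 15.4 ± 0.806 CPM with DEX, 15.9 ± 0.491 CPM with SH4-54 and 14.7 ± 0.24 CPM without drug. Its log2 fold changes were 0.10 ± 0.0532 for both compounds against SH4-54 (edgeR adjusted p = 0.136) and 0.07 ± 0.0539 for DEX against no drug. The antisense gene ZNRF3-AS1 had 0 to 4 reads in each library.

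In all, 4 of the 10 genes passed for both compounds against SH4-54: DKK1 and WNT5A rose, LGR5 and LGR4 fell. That share of 40% lay beside 40.4% of all tested genes in the same comparison, 20.1% higher and 20.3% lower, so the count itself is at the background and the sizes carry the description. For DEX against no drug, which served the choice, 6 of the 10 had a log2 fold change below 0. That is a count of signs without a threshold, and the median log2 fold change of all tested genes was -0.01. Separately, 45.1% of all tested genes passed the threshold in that contrast, 21.9% higher and 23.2% lower, shares that do not compare with a count of signs. The wells of that contrast overlapped for TCF7, DKK3 and ZNRF3. The 4 calls were kept under all 19 alternatives tried.

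**Figure D2:**
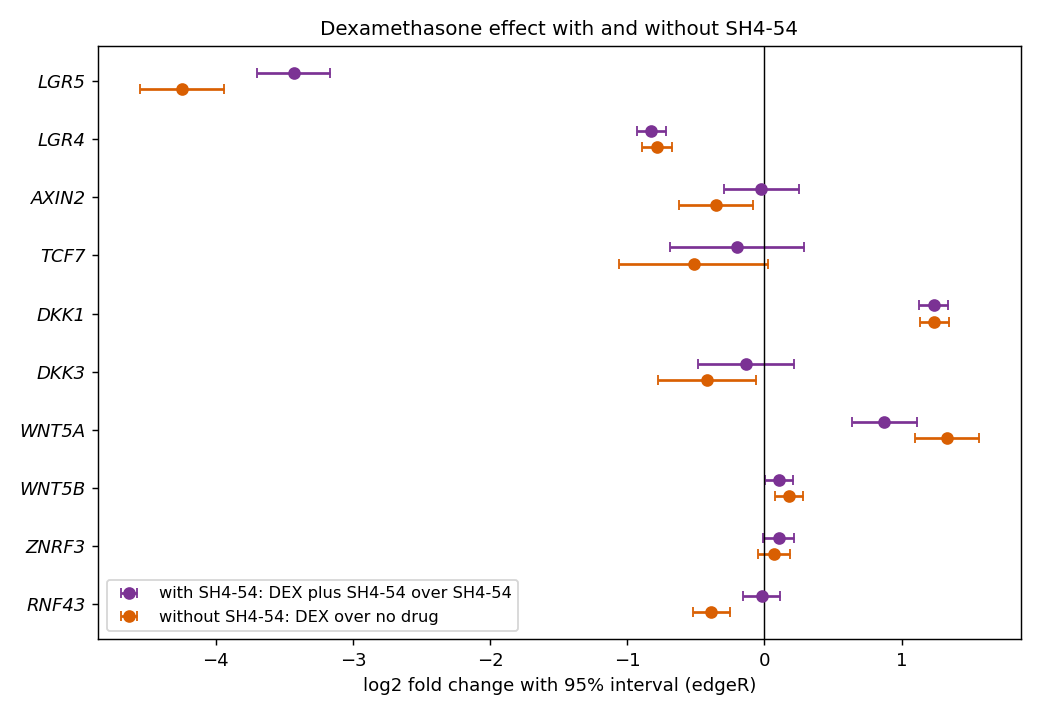
Log2 fold changes with DEX for the 10 genes, with 95% intervals from the edgeR fit, in the presence of SH4-54 (DEX plus SH4-54 over SH4-54, purple) and in its absence (DEX over no drug, orange); the orange contrast was used to choose the genes. LGR5 lies at -3.43 and -4.25, DKK1 at 1.24 in both settings, and RNF43 at -0.02 and -0.39.

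SH4-54 alone left the 10 genes without a call. None passed against no drug (edgeR quasi-likelihood test) and none passed with DESeq2, with 0.599% of all genes passing (edgeR), 0.268% higher and 0.331% lower. Of the 10, 2 had an unadjusted p below 0.05, a cutoff at which the share of all genes was not counted. Those 2 were ZNRF3 (log2 fold change 0.12 ± 0.0538, edgeR adjusted p = 0.362) and LGR4 (-0.12 ± 0.0499, edgeR adjusted p = 0.343), both without overlap between the wells. The LGR5 log2 fold change was 0.04 ± 0.0925 (95% interval -0.16 to 0.24) and that of DKK1 -0.07 ± 0.0491 (-0.18 to 0.03). The no-drug wells of this comparison also served the choice of the genes.

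Added to DEX, SH4-54 changed some of the same genes. Against DEX alone, the combination wells had more LGR5 and RNF43 and less WNT5A. LGR5 was 1.8-fold higher with both compounds than with DEX (log2 fold change 0.85 ± 0.203, edgeR adjusted p = 0.00703), which still left it 10.8-fold below SH4-54 alone, and without combination replicate 2 the adjusted p was 0.0531 (edgeR). The combination well with the highest LGR5 level, replicate 2, was also the one with the highest HSPA6 level. RNF43 rose by a log2 fold change of 0.29 ± 0.0641 (edgeR adjusted p = 0.00442) and WNT5A had a log2 fold change of -0.51 ± 0.102 (edgeR adjusted p = 0.00256), and both calls were kept under all 19 alternatives.

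Weaker calls in this comparison were those of LGR4 (-0.16 ± 0.0505, edgeR adjusted p = 0.0333) and ZNRF3 (0.15 ± 0.0534, edgeR adjusted p = 0.0448). The LGR4 call was lost in 6 of 19 alternatives, which include leaving out each DEX replicate (edgeR adjusted p = 0.0608, 0.111 and 0.0637 without replicates 1, 2 and 3) and combination replicates 1 (0.0701) and 2 (0.152). The ZNRF3 call was lost in 15 of 19, and over left-out libraries it was kept only without DEX replicate 1 or SH4-54 replicate 1. TCF7 (0.60 ± 0.253, edgeR adjusted p = 0.0922), DKK3 (0.26 ± 0.17), AXIN2 (0.10 ± 0.13), WNT5B (-0.04 ± 0.0482) and DKK1 (-0.07 ± 0.0488) did not pass. The 5 calls of 10 stood beside 26.6% of all genes, 13% higher and 13.5% lower. Without combination replicate 2, 2 of the 10 passed, and 2213 of all genes passed against 3770 with all 12 libraries. This comparison shares its DEX wells with the contrast that chose the genes. FKBP5 was lower in the combination wells than in the wells with DEX alone. The part of the HSPA6 and FKBP5 differences in these results was not tested.

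**Figure D3:**
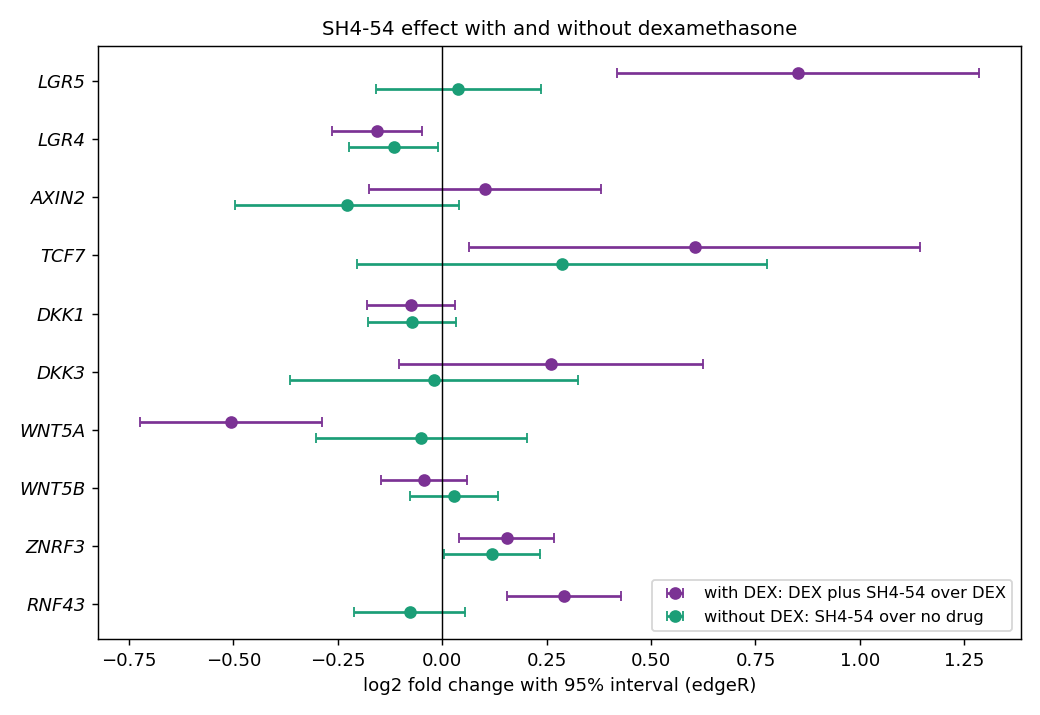
Log2 fold changes with SH4-54 for the 10 genes, with 95% intervals from the edgeR fit, in the presence of DEX (DEX plus SH4-54 over DEX, purple) and in its absence (SH4-54 over no drug, green). The LGR5, RNF43, WNT5A and TCF7 intervals lie off 0 with DEX and cover 0 without it, though TCF7 did not pass the adjusted threshold. The LGR4 and ZNRF3 intervals lie off 0 in both settings, though without DEX neither passed the adjusted threshold (edgeR adjusted p = 0.343 and 0.362). Of the 10 genes, only RNF43 passed the interaction test described below.

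Whether the SH4-54 effect differed with DEX was tested by the interaction, which equals the DEX effect with SH4-54 minus the DEX effect without it and so contains the contrast that chose the genes. RNF43 passed (0.37 ± 0.0892, edgeR adjusted p = 0.0347), with 3.9% of all genes passing, 2.44% higher and 1.46% lower. That call was kept under 6 of 18 alternatives and over left-out libraries only without combination replicate 3 or no-drug replicate 3, with adjusted p up to 0.106 without no-drug replicate 2. LGR5 just missed the threshold (0.81 ± 0.223, edgeR adjusted p = 0.0573) and passed under 2 of 18 alternatives (adjusted p 0.0295 to 0.185 over all 18, the lowest without combination replicate 1), and WNT5A did not pass (-0.46 ± 0.156, edgeR adjusted p = 0.112) except under 1 of 18 alternatives (adjusted p 0.00798 to 0.242 over all 18, the lowest without combination replicate 3). DKK1 had an interaction of 0.00 ± 0.0693, with a 95% interval from -0.15 to 0.15, and LGR4 one of -0.04 ± 0.071 (-0.19 to 0.11).

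The wider pathway was read from a textbook list of 92 other Wnt genes, chosen with earlier results of these data known. Shares over this list therefore describe its genes and are no independent test. Single genes named from it below were picked by smallest p. Of the 92, 57 had enough counts to be tested. None of the 4 R-spondin genes, LGR6, or the antagonist genes DKK2, DKK4, WIF1 and SFRP1 did. Of the 57, 5 rose and 24 fell with both compounds against SH4-54, or 50.9% against 40.4% of all genes, and 42.1% fell against 20.3% of all genes. The median log2 fold change of the 57 was -0.13, against 0.00 for all genes. For DEX against no drug, 5 rose and 27 fell (56.1% against 45.1% of all genes), with a median of -0.12 against -0.01. These comparisons share no wells. Of the falls, 20 were common to both, which is 83.3% of those with SH4-54 present and 74.1% of those without it. No gene was called in opposite directions. The same overlap was not counted over all tested genes, so these shares are not shown to be particular to Wnt genes.

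Receptor genes fell or did not pass. Of 13 tested, 7 fell and 0 rose in each of these comparisons. That is 53.8% called, against 40.4% of all genes called in either direction with SH4-54 present and 45.1% without it. Falls alone made up 20.3% and 23.2% of all genes. FZD7, a Frizzled receptor gene, held 40.6, 42.4 and 40.2 CPM with both compounds and 33.8, 35.0 and 34.3 CPM with DEX, against 56.0, 55.7 and 57.2 CPM with SH4-54 and 58.2, 57.6 and 55.8 CPM without drug. Its groups with and without DEX did not overlap, and it fell, with a log2 fold change of -0.46 ± 0.0376 for both compounds against SH4-54 (edgeR adjusted p = 2.07e-07) and -0.74 ± 0.038 for DEX against no drug (edgeR adjusted p = 8.76e-10). The co-receptor gene LRP5 fell, at -0.49 ± 0.0572 (edgeR adjusted p = 9.08e-06) and -0.49 ± 0.0572 (edgeR adjusted p = 5.83e-06) in the same comparisons.

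Ligand and nuclear factor genes moved both ways. Of 9 ligand and secretion genes 2 rose and 4 fell with both compounds against SH4-54, and 1 rose and 3 fell with DEX against no drug. That is 66.7% against 40.4% of all genes, and 44.4% against 45.1%. WNT7B held 3.30, 6.52 and 3.48 CPM with both compounds and 2.48, 2.19 and 1.73 CPM with DEX, against 10.4, 9.46 and 6.68 CPM with SH4-54 and 8.76, 9.41 and 8.82 CPM without drug. The highest combination well, replicate 2, lay just under the lowest SH4-54 well. WNT7B fell, with a log2 fold change of -1.01 ± 0.214 (edgeR adjusted p = 0.00158) for both compounds against SH4-54 and -2.07 ± 0.238 (edgeR adjusted p = 4.78e-06) for DEX against no drug. Among 9 nuclear factor genes, 1 rose and 5 fell, and 2 rose and 4 fell, in the same order, which is 66.7% against 40.4% and 66.7% against 45.1% of all genes. The corepressor gene TLE3 fell, at -0.63 ± 0.0666 (edgeR adjusted p = 2.73e-06) and -0.87 ± 0.068 (edgeR adjusted p = 7.19e-08).

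Of 12 cytoplasmic signalling genes, 1 rose and 2 fell with both compounds against SH4-54, and 1 rose and 4 fell with DEX against no drug. That is 25% against 40.4% of all genes, and 41.7% against 45.1%. The gene that rose was CTNNB1, which encodes beta-catenin. It averaged 981 ± 52.2 CPM with both compounds, 1105 ± 1.48 CPM with DEX, 907 ± 31.5 CPM with SH4-54 and 935 ± 7.78 CPM without drug. Its rise was 0.11 ± 0.0376 (edgeR adjusted p = 0.0259) with both compounds against SH4-54, with overlapping wells, and was lost in 4 of 19 alternatives: with the compared groups alone (adjusted p = 0.0973), and without combination replicate 1 (0.0955) or 3 (0.116) or SH4-54 replicate 1 (0.116). With DEX against no drug it was 0.24 ± 0.0375 (edgeR adjusted p = 9.54e-05) and was kept under all 19 alternatives. Of the 3 tested antagonists, 1 fell in each comparison, TPBG, which encodes a membrane inhibitor of Wnt signalling, at -0.23 ± 0.0481 (edgeR adjusted p = 0.00163) and -0.18 ± 0.048 (edgeR adjusted p = 0.00776).

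Among the transcriptional targets MYC was the gene that rose. Of 11 tested, 1 rose and 5 fell with both compounds against SH4-54, and 1 rose and 8 fell with DEX against no drug. That is 54.5% against 40.4% of all genes, and 81.8% against 45.1%. EPHB3, an ephrin receptor gene, held 2.49, 3.26 and 2.49 CPM with both compounds and 1.93, 2.09 and 2.11 CPM with DEX, against 7.80, 6.87 and 6.71 CPM with SH4-54 and 7.70, 7.19 and 6.43 CPM without drug. It fell, with a log2 fold change of -1.38 ± 0.122 (edgeR adjusted p = 4.38e-07) for both compounds against SH4-54 and -1.80 ± 0.128 (edgeR adjusted p = 2.75e-08) for DEX against no drug. The progenitor factor gene SOX9 fell, at -1.07 ± 0.155 for both compounds against SH4-54 (edgeR adjusted p = 6.69e-05). MYC rose by log2 fold changes of 0.69 ± 0.034 (edgeR adjusted p = 9.09e-10) and by 0.74 ± 0.0339 (edgeR adjusted p = 2.44e-10) in these comparisons. Many of these genes are also controlled by other pathways.

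**Figure D4:**
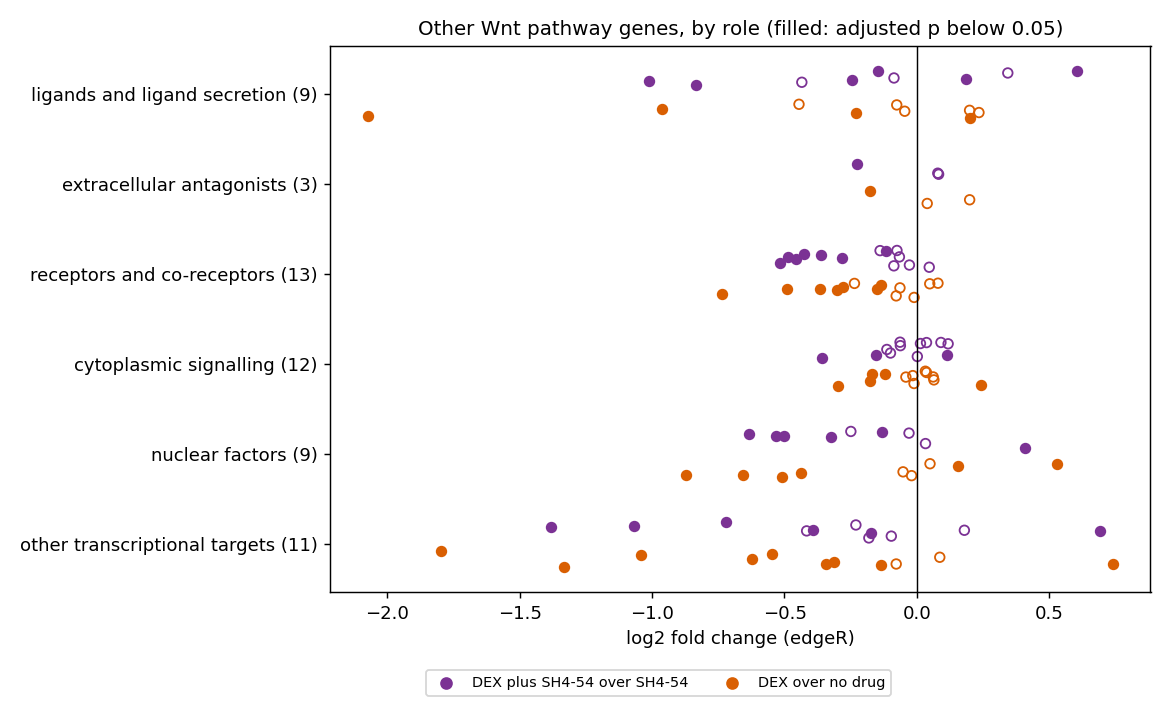
Log2 fold changes with DEX of the 57 other tested Wnt genes, grouped by role with the number tested in brackets, in the presence of SH4-54 (purple) and in its absence (orange); filled points passed at an adjusted p below 0.05. Receptors have 7 falls and 0 rises in each comparison, and the rightmost pair of filled points among the targets is MYC, at 0.69 and 0.74.

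With SH4-54 alone none of the 57 genes passed (edgeR), as with DESeq2. An unadjusted p below 0.05 was found for 7, and the share of all genes at that cutoff was not counted. For both compounds against DEX 12 rose and 4 fell, 28.1% against 26.6% of all genes. Without combination replicate 2, 7 rose and 3 fell, and calls over all genes dropped from 3770 to 2213. FZD7 (0.26 ± 0.0385, edgeR adjusted p = 0.000347) and the adhesion receptor gene CD44 (0.39 ± 0.0586, edgeR adjusted p = 0.000379) were among the genes that rose, and CTNNB1 (-0.17 ± 0.0375, edgeR adjusted p = 0.00415) among those that fell.

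Over the 12 libraries, the genes whose log2 CPM was most like that of LGR5 included LOC101927229, ABCG2, FOXQ1 and MORC4, with Pearson's r from 0.996 to 0.997 among 12431 genes compared. The points share the split between wells with and without DEX, so this is a description of that split. FOXQ1, a forkhead transcription factor gene, held 19.9, 22.5 and 23.3 CPM with both compounds and 19.7, 18.4 and 17.7 CPM with DEX, against 43.5, 42.3 and 43.1 CPM with SH4-54 and 45.7, 44.3 and 41.5 CPM without drug. ABCG2, a drug efflux transporter gene, held 19.7, 20.7 and 21.7 CPM with both compounds and 18.8, 19.1 and 18.6 CPM with DEX, against 39.8, 38.8 and 41.1 CPM with SH4-54 and 39.5, 39.4 and 38.9 CPM without drug.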

How the data were processed

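Whole-number read counts per gene for 12 libraries, deposited by the authors as 1 table, were the starting point. HISAT2 2.1.0, SAMtools and featureCounts 1.5.1 on hg19 (GRCh37) are listed per the submitters' processing notes. Per the labels' protocols, libraries were stranded, ribosomal RNA was depleted and single reads of 50 bases were taken. No source used here gives the annotation, strand setting or multi-mapping rule. Groups follow the sample titles; the treatment tags of the wells given SH4-54 alone spell SH4-54 as SH5-54. The 10 genes and the textbook list of 92 others were chosen with earlier results of these data known. Named others were up to 2 risen and 2 fallen per role and comparison by smallest p, with at least 1 CPM in a group, and the 5 genes closest to LGR5 by correlation of log2 CPM (prior count 2); part of them is named, 1 of the 5 is not reported here, and FKBP5 and HSPA6 served as checks.

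In R 4.3.3 with edgeR 4.0.16, filterByExpr kept 14184 genes, libraries were TMM-scaled, and a quasi-likelihood model of all 4 groups (8 residual degrees of freedom) gave p-values adjusted by Benjamini-Hochberg over all genes, with a threshold of 0.05. The standard error is the absolute log2 fold change divided by the root of F. The fit was tested on simulated data. Alternatives included DESeq2 1.42.0, other filters and scaling, a replicate block and leaving out libraries singly. Replicate libraries all differed by more than sampling noise (lowest chi-square per degree of freedom 4.39). Levels per kilobase used GENCODE 29 exon lengths, which may differ from the authors' annotation. Promoters are from RefSeq GRCh38.p14, not the build of the counts.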

Additional observations from a re-analysis of the deposited data

Results flagged for a closer look

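RNF43 and FZD7 passed the interaction test, which asks whether the SH4-54 effect differed between cells with and without DEX and which contains the contrast used to choose the 10 genes. RNF43 had an interaction of 0.37 on the log2 scale (SE 0.0892, edgeR adjusted p = 0.0347). The RNF43 call was lost in 12 of 18 alternatives: with DESeq2 (adjusted p = 0.0842), with the replicate block (0.0604) and in 10 fits with a library left out (0.0564 to 0.106). All 3 combination wells lay above all 3 DEX wells. FZD7 had an interaction of 0.28 (SE 0.0534, edgeR adjusted p = 0.0133), and all 3 combination wells again lay above all 3 DEX wells. FZD7 was the only call among the 57 other Wnt genes, 1.75% against 3.9% of all genes, so that count is below the background. Its call was kept under all 18 alternatives, with the highest adjusted p at 0.0459.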

How the results depend on the processing

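Of 40 tested values of the 10 genes, 25 kept their direction and side of the threshold under every alternative run, and 697 of 750 refits did so. For the combination against DEX, 3 of the 10 passed with the compared groups alone and 2 to 5 when 1 library was left out. For the interaction 0 passed with DESeq2 or with the replicate block, 2 without a count filter and 0 to 2 with a library left out. Of the other Wnt genes, of which 58 or 59 could be tested with a library left out and 88 without a count filter, 10 to 19 passed for the combination against DEX with a library left out. For the interaction it was 1 to 9, and 2 without a count filter. Over all genes, SH4-54 against no drug gave 85 calls, 185 with DESeq2, 176 without a count filter, 155 with the compared groups alone and 26 to 163 with a library left out. The interaction gave 553, 848 without a count filter and 204 to 2046 with a library left out, and the combination against DEX gave 3770, or 2213 to 4633. The cause was not tested; fits with a library left out have fewer wells.

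Values near 0 changed sign in some left-out fits. With SH4-54 alone LGR5 ran from -0.00698 to 0.0795, DKK3 from -0.14 to 0.10, WNT5A from -0.15 to 0.000625 and WNT5B from -0.0153 to 0.0505. For both compounds against SH4-54 AXIN2 ran from -0.129 to 0.0948 and RNF43 from -0.0419 to 0.00834. For the interaction LGR4 ran from -0.115 to 0.0145, DKK1 from -0.0665 to 0.0476 (0.00423 with the stricter filter) and ZNRF3 from -0.00782 to 0.066. None of these passed the threshold in any of those fits.

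No pairing of wells by replicate number was seen in expression. Over 18 same-numbered pairs the correlation of deviations from group means ran from -0.0975 to 0.0926. Of 12 libraries, 2 correlated best with their own number. Low correlations cannot show that same-numbered wells share nothing, and no source used here states what the numbers share. With the replicate block, the combination against DEX gave 4 of the 10 and 13 of the 57 other genes, and the combination against SH4-54 gave 4 and 28. Counts over all genes in that fit are not given here, so these counts are not read against a background. The low reads of LGR5 with DEX and of TCF7 throughout limit what depth can show.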
